A study of Mus musculus with 6 samples.

Results

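The RNA levels of 10 transcription factor and immediate early genes, Fos, Fosb, Jun, Junb, Egr1, Atf3, Ier2, Klf2, Klf4 and Klf6, were followed in mouse osteoblasts treated with dexamethasone and with extracellular vesicles of endothelial progenitor cells (EPC-EVs). The genes were taken by name from the gene table, where they are 10 of 21686 genes. Fos and Klf2 were chosen by their higher counts with EPC-EVs, so their values are a description and no test is given for them. The other 8 genes were tested in fits across all genes.

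Immediate early genes are transcribed within minutes of a growth factor or stress stimulus, without new protein synthesis, and their RNA is usually short-lived. Fos and Jun proteins pair to form AP-1, a transcription factor that acts in osteoblast proliferation and bone formation, and different AP-1 subunits differ in activating strength. Krüppel-like factors (Klf) are zinc finger transcription factors that bind GC-rich promoter elements, and several of them respond to serum, flow or glucocorticoids.

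MC3T3-E1 Subclone 14, a clonal mouse osteoblast precursor line, was used in all groups. Control cells received 100 µL of PBS, dexamethasone cells received 10 µM dexamethasone, a synthetic glucocorticoid, and dexamethasone + EPC-EVs cells received 10 µM dexamethasone with 100 µg of EPC-EVs (EPCs-exo in the labels), each for 72 hours. Each group had 2 libraries, so each SD is between 2 libraries and p-values measure only the spread between these samples. No group received EPC-EVs without dexamethasone, and all the cells came from 1 line, so the values describe this line.

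The counts of a library summed to between 5146760 and 6583735 without vesicles, and to 12864009 and 13182014 with them. A count of 0 therefore allows 0.228 to 0.583 CPM (counts scaled to a common library size), for counting error only. All 12 osteoblast markers had counts in at least 1 library of every group, with Col1a2 and Spp1 among the most abundant. Some were near the floor: with dexamethasone Alpl had 5 and 0 counts and Bglap 11 and 0, and Ibsp had 2 to 26 counts over all libraries. Of the endothelial markers, which the vesicle donor cells could carry, 12 of 17 were in the table and 9 of them had counts in each group, summing to 484 to 539 CPM in control, 481 to 491 CPM in dexamethasone and 335 to 411 CPM in dexamethasone + EPC-EVs, mostly Cd34. Tek and Prom1 were at 0 in all dexamethasone and dexamethasone + EPC-EVs libraries, Cdh5 in all but 1 dexamethasone library, with 1 count, and Nos3 in both control libraries. Emcn was at 0 in every control and dexamethasone library and had 0 and 6 counts with EPC-EVs. Pecam1 had 5 and 2 counts in control, 7 and 0 with dexamethasone and 1 and 21 with EPC-EVs. Leukocyte markers, of which 9 of 12 were in the table, summed to 19.1 to 26.8 CPM without vesicles and to 43.9 and 88.2 CPM with them, and the Csf1r count was 471 in 1 of the latter libraries and 56 in the other. The dexamethasone + EPC-EVs libraries also stood apart in mitochondrially encoded RNA, at 0.465% and 0.727% of counts against 5.55% to 8.62% in the other 4. Malat1, a nuclear RNA, took 0.245% to 0.259% of their counts against 0.058% to 0.136% elsewhere. The part of these library differences in the results was not tested, and a preparation difference cannot be told apart from the vesicle treatment. In bulk RNA, fewer cells of a type and less RNA per cell cannot be told apart either.

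The promoters of 4 members with at least 6-fold higher levels under EPC-EVs (Fos, Fosb, Junb and Klf2) and of Jun, which was lower, are shown so that the genes that diverged can be read side by side. Each is the RefSeq window of 300 bases on GRCm38.p6, 250 before and 50 from the transcription start (position 1), read 5′ to 3′ along the gene's strand. Capitals mark the core of the cAMP response element, or CRE core (TGACG or its reverse complement CGTCA), the TATA box core (TATAAA) and the MEF2 site. The Fos window is chr12:85473640-85473939 on the plus strand, the Fosb window chr7:19309996-19310295 on the minus strand, the Junb window chr8:84978699-84978998 on the minus strand, the Klf2 window chr8:72318812-72319111 on the plus strand and the Jun window chr4:95052173-95052472 on the minus strand.
Fos: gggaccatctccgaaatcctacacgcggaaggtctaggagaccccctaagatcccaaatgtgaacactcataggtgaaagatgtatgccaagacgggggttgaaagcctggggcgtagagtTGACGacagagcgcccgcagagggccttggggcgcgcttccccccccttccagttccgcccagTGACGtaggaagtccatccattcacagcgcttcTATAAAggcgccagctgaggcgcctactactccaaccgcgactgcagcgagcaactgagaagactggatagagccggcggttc
Fosb: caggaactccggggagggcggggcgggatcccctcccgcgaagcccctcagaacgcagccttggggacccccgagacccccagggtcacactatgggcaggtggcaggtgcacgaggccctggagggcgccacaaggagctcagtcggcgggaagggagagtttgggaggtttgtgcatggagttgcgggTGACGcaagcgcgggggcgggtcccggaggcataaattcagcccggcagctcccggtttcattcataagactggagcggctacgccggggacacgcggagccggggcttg
Junb: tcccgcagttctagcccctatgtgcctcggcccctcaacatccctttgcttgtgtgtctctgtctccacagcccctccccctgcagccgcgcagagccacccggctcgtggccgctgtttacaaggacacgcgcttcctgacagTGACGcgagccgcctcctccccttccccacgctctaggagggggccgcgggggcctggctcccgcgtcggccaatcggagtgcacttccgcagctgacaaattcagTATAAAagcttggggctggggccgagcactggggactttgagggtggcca
Klf2: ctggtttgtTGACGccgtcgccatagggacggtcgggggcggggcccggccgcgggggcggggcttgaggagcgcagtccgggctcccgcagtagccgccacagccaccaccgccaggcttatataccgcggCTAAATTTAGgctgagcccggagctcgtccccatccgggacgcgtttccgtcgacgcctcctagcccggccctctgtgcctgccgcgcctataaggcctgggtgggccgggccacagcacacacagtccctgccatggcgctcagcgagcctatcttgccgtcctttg
Jun: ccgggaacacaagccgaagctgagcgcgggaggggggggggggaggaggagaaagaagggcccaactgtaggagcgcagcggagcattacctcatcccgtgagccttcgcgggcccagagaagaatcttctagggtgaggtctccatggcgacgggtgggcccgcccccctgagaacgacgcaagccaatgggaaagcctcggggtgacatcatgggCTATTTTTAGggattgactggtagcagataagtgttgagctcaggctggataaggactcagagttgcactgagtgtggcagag

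Fos carried CRE cores at -129 and -66 and a TATA box core at -33, and Fosb a CRE core at -60. Junb carried a CRE core at -106 and a TATA box core that began at position 1 of the RefSeq start, while the gene start in GENCODE lay 30 bases further downstream. Klf2 carried a CRE core at -241 and a MEF2 site at -118, and Jun a MEF2 site at -33. Of the 10 members, 8 were in the promoter table, all but Ier2 and Egr1. Searched on both strands, the CRE core was present in 6 of 8 member windows (Atf3, Fos, Fosb, Junb, Klf2 and Klf4) and in 20.8% of all 32851 windows. The Atf3 window, counted in both of its tallies (CRE core and MEF2 site), was taken at a RefSeq start relative to which the gene start in GENCODE lay at position -34706. The TATA box core was present in 2 of 8 and in 13.6% of all, and the MEF2 site in 3 of 8 (Atf3, Jun and Klf2) and in 3.19% of all. The full cAMP response element, which contains the CRE core, was in none of the 8 windows and in 1.79% of all. The CArG box, bound by serum response factor, was in none and in 1.63% of all, the AP-1 site (TGACTCA on either strand) in none and in 5.2%, and the glucocorticoid response element in none and in 0.00913%. These are matches of letters in a short window, and a match or its absence says nothing of binding in these cells.

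Levels can be ranked between genes in FPKM, which is scaled to gene length. In control cells the order ran from Jun at 219 ± 37 FPKM (SD, n = 2) through Egr1, Klf6 and Klf4 to Ier2 and Junb near 11 FPKM, with Atf3, Fos, Klf2 and Fosb at 3.57 to 0.803 FPKM. The libraries of Ier2 and Junb overlapped, as did those of each neighbouring pair from Atf3 down to Fosb. In dexamethasone cells the first 6 places were the same, from Jun at 154 ± 12.8 FPKM to Junb at 12.7 ± 0.969 FPKM. In dexamethasone + EPC-EVs cells Ier2 was at the top with 145 ± 15.4 FPKM, above Jun at 81.5 ± 0.703, Junb at 74 ± 0.805, Fos at 71.3 ± 4.01 and Egr1 at 61.8 ± 11.8 FPKM. Of these, Junb and Fos overlapped, as did Fos and Egr1. Klf4, Klf2, Fosb and Klf6 followed between 34.4 and 22.5 FPKM, where the libraries of Klf2 and Fosb overlapped, as did those of Fosb and Klf6, and Atf3 was at 0.339 ± 0.0311 FPKM.

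**Figure D1:**
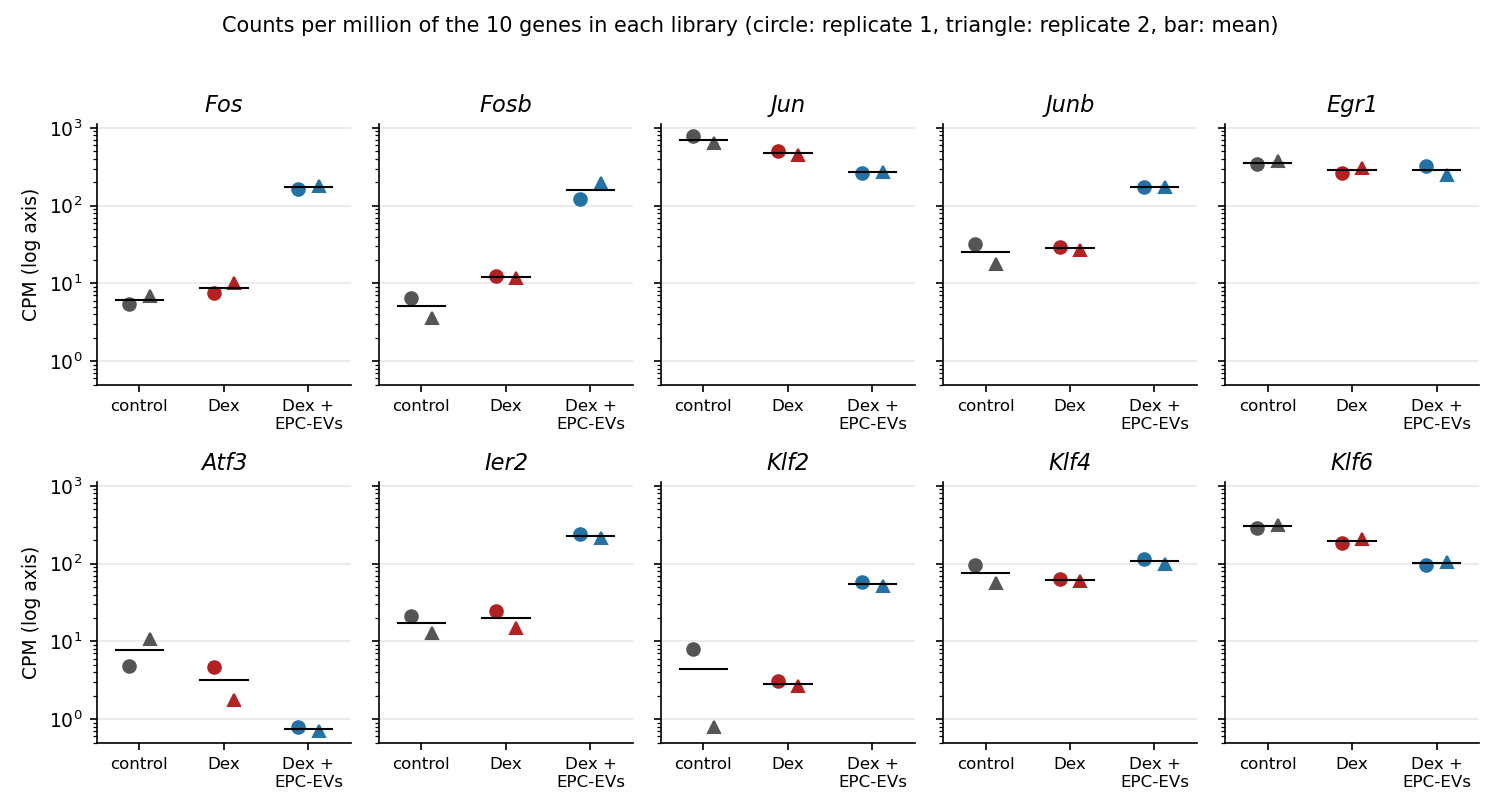
Each panel plots 1 gene, with the group on the horizontal axis and TMM-normalized CPM on a log axis. Circles are replicate 1, triangles replicate 2 and bars the mean of 2 libraries. The dexamethasone + EPC-EVs points of Fos, Fosb, Junb, Ier2 and Klf2 lie above all 4 other libraries, those of Jun, Atf3 and Klf6 lie below them, and the control Klf2 points are far apart at 7.98 and 0.796 CPM.

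Setting dexamethasone + EPC-EVs against dexamethasone asks what the vesicles changed in steroid-treated osteoblasts. Fosb, Junb, Ier2 and Klf4 rose, Jun and Klf6 fell, and Egr1 and Atf3 were not called. Thus 4 of the 8 tested members were called higher, where 20.9% of the 13556 genes tested were, and 2 were called lower, where 18.9% were (edgeR's quasi-likelihood test, adjusted p under 0.05). The median log2 fold change was 0.36 over the 8 tested members, Fos and Klf2 left out, and 0.01 over all genes tested. The libraries of the groups overlapped for Egr1 and for no other member, but Fos and Klf2 were picked for their rise. The share of all genes without overlap was not taken, so this is a description only.

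Among the AP-1 subunits, Fos, whose protein pairs with Jun proteins and cannot bind DNA as a dimer with itself, lies on chromosome 12 (85473890 to 85477273, plus strand). It was at 7.57 and 10 CPM with dexamethasone and at 164 and 180 CPM with dexamethasone + EPC-EVs (52, 68, 2072 and 2299 counts). The level with vesicles was 19 times that without, a log2 fold change of 4.25 ± 0.2 (SE), given as a description because Fos was picked for it.

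Fosb, a second Fos family subunit with a role in bone formation, lies on chromosome 7 (19302696 to 19310051, minus strand). Its level was 12.5 and 11.6 CPM with dexamethasone and 122 and 196 CPM with EPC-EVs added. Both vesicle libraries were high, although they differed from each other by more than those of Fos. Fosb was 12.8-fold higher, at a log2 fold change of 3.67 ± 0.24 (SE, edgeR adjusted p = 1.48e-06).

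Junb, a Jun family subunit that activates many AP-1 sites more weakly than Jun, lies on chromosome 8 (84974484 to 84978718, minus strand). Junb was at 29.6 and 26.8 CPM with dexamethasone and at 175 CPM in both dexamethasone + EPC-EVs libraries. The increase was 6-fold, at a log2 fold change of 2.59 ± 0.16 (SE, edgeR adjusted p = 8.35e-07). With a correction for GC content and length it was 1.43, still called (edgeR adjusted p = 6.23e-05). Junb overlaps Prdx2 on the opposite strand, and the sources do not say whether reads were counted by strand, so its counts are less certain. Prdx2 itself was 1.35-fold higher (edgeR adjusted p = 0.0387).

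Jun, the principal Jun subunit and a target of JNK signalling, lies on chromosome 4 (95049034 to 95052222, minus strand). Jun fell from 499 and 448 CPM to 263 and 271 CPM. All 4 libraries were deeply counted, with at least 3042 reads on Jun in each, and the groups did not overlap. Jun was 1.83-fold lower, at a log2 fold change of -0.87 ± 0.12 (SE, edgeR adjusted p = 0.000213), and at -1.32 with the GC and length correction. The antisense gene Junos, which overlaps Jun, was at 14.3 CPM with dexamethasone and 9.7 CPM with EPC-EVs and was not called.

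Of the other immediate early genes, Ier2, a small nuclear protein induced by serum, lies on chromosome 8 (84661331 to 84662852, minus strand), 311.6 kb from Junb. Ier2 rose from 24.6 and 14.9 CPM to 241 and 211 CPM, with no overlap. The increase was 11.1-fold, at a log2 fold change of 3.47 ± 0.22 (SE, edgeR adjusted p = 9.82e-07), and 2.53 with the GC and length correction.

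Egr1, a zinc finger factor induced by growth factor signalling through serum response factor, lies on chromosome 18 (34859823 to 34864984, plus strand). Egr1 was at 265 and 304 CPM with dexamethasone and at 320 and 248 CPM with EPC-EVs, and the groups overlapped. Its log2 fold change was -0.05 ± 0.15 (SE, edgeR adjusted p = 0.818), with a 95% interval from -0.38 to 0.28. With the GC and length correction it was -0.5 and called lower (edgeR adjusted p = 0.0282), and without the second dexamethasone or the second dexamethasone + EPC-EVs library its sign turned, to 0.05 and 0.15.

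Atf3, a stress-induced member of the ATF and CREB family, lies on chromosome 1 (191170296 to 191218039, minus strand). It had 32 and 12 counts with dexamethasone and 10 and 9 counts with EPC-EVs in the deeper libraries, or 4.66, 1.77, 0.792 and 0.706 CPM. The 2 vesicle libraries were the lowest. The log2 fold change was -2.13 ± 0.92 (SE, 95% interval -4.13 to -0.12), which did not pass the test (edgeR adjusted p = 0.0854) and was -1.25 without the first dexamethasone library. The gene overlaps the short RNA Gm24748.

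Of the Klf genes tested, Klf4 rose and Klf6 fell. Klf2, a factor induced by fluid flow in endothelium, lies on chromosome 8 (72319033 to 72321656, plus strand). It was at 3.06 and 2.65 CPM with dexamethasone and at 58 and 51 CPM with EPC-EVs (21, 18, 732 and 650 counts). This is 18.4 times the level without vesicles, a log2 fold change of 4.2 ± 0.28 (SE) and of 3.22 with the GC and length correction, again as a description, since Klf2 was picked for it.

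Klf4, a factor known from pluripotency and from epithelial differentiation, lies on chromosome 4 (55527143 to 55532466, minus strand). Klf4 rose from 63.3 and 59.2 CPM to 116 and 99.5 CPM, 1.7-fold, at a log2 fold change of 0.77 ± 0.16 (SE, edgeR adjusted p = 0.0028). This call depended on the GC and length correction and not on the library scaling (0.75 with RLE and 0.72 with upper-quartile factors, both called): with the GC and length correction the log2 fold change turned to -0.25 and was not called (edgeR adjusted p = 0.235). Klf6, a widely expressed member of the family, lies on chromosome 13 (5861482 to 5870394, plus strand). Klf6 fell from 187 and 208 CPM to 96.9 and 106 CPM, 2.01-fold, at a log2 fold change of -1.01 ± 0.14 (SE, edgeR adjusted p = 0.000188).

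**Figure D2:**
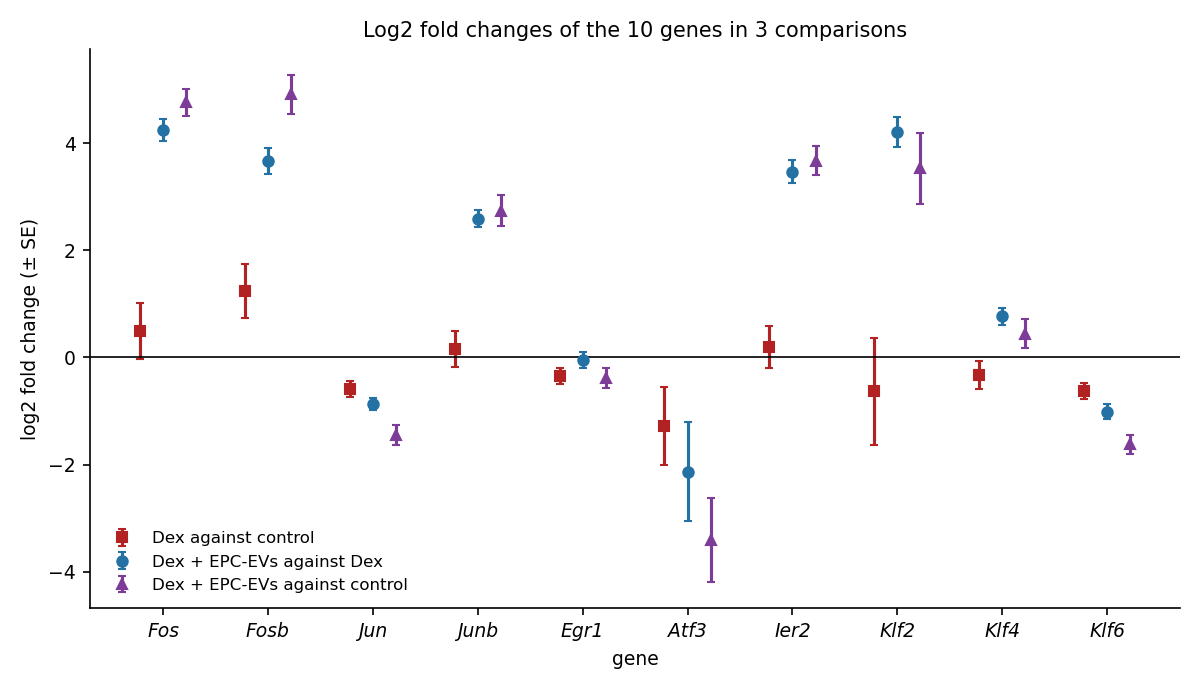
Points are log2 fold changes of each gene in 3 comparisons and bars are the SE of the fit. With EPC-EVs, Fos, Fosb, Junb, Ier2 and Klf2 stand above 2.5 against both other groups and Jun, Atf3 and Klf6 lie below 0. Fos and Klf2 were picked for their rise and carry no test.

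Dexamethasone against control asks what the steroid alone did. None of the 8 tested members was called by edgeR at an adjusted p under 0.05. The background was as low, with 0.0155% of the 12879 genes tested called higher and 0.0388% called lower. At an unadjusted p under 0.05 there were 4 of the 8 (Fosb, Jun, Egr1 and Klf6) against 1409 of all genes tested. DESeq2 called 2, Jun and Klf6, among 134 of all genes, and limma on log2(FPKM + 1) called 0 of the members and of all genes. The median log2 fold change was -0.33 over the 8 tested members and 0.01 over all genes tested.

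Jun was at 780 and 629 CPM in control and at 499 and 448 CPM with dexamethasone, a log2 fold change of -0.58 ± 0.15 (SE, edgeR adjusted p = 0.286). Klf6 was at 290 and 314 CPM in control and at 187 and 208 CPM with dexamethasone, a log2 fold change of -0.62 ± 0.15 (SE, edgeR adjusted p = 0.279). For both genes the 2 dexamethasone libraries lay below both control libraries. DESeq2's adjusted p was 0.0276 for each. Jun was also called with the GC and length correction (-0.8, edgeR adjusted p = 0.0152). Without the first and without the second control library, the log2 fold change was -0.41 and -0.71 for Jun. For Klf6 it was -0.67 and -0.55. Such a fit rests on the other control library alone.

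Fosb had 40 and 18 counts in control and 86 and 79 with dexamethasone, or 6.52, 3.58, 12.5 and 11.6 CPM, a log2 fold change of 1.24 ± 0.51 (SE, edgeR adjusted p = 0.422). Without the first control library it was 1.75, a value that rests on the other control library alone. Egr1 was at 342 and 373 CPM in control and at 265 and 304 CPM with dexamethasone (-0.34 ± 0.15, SE, edgeR adjusted p = 0.454), and at -0.39 on the log2 scale without the first control library.

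Fos was at 5.38 and 6.97 CPM in control, under both dexamethasone libraries, a log2 fold change of 0.5 ± 0.52 (SE). Atf3 was at 4.89 and 10.7 CPM in control, over 4.66 and 1.77 CPM with dexamethasone (-1.28 ± 0.72, SE, edgeR adjusted p = 0.533). Its log2 fold change was -2.14 without the first dexamethasone library and -0.59 without the second control library. The groups overlapped for Junb (32.3 and 17.9 CPM in control), Ier2 (21.2 and 12.9 CPM), Klf2 (7.98 and 0.796 CPM) and Klf4 (96.6 and 56.5 CPM). The first control library was the higher in these 4 genes. The control Klf2 value rested on it: the log2 fold change of Klf2 was -0.63 ± 1 (SE) and turned to 1.82 without that library, against -1.47 without the second.

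Dexamethasone + EPC-EVs against control asks how far the cells given both agents were from untreated ones. Fosb, Junb and Ier2 were higher than in control, and Jun, Atf3 and Klf6 were lower. These are 3 of 8 tested members called higher, where 19.1% of the 13511 genes tested were, and 3 called lower, where 17.2% were. Atf3 is among the 3 called lower, but it passed the filter on low counts only through the control libraries, where it was high. The median log2 fold change was 0.03 over the 8 tested members and 0.02 over all genes tested. No member's libraries overlapped, not even those of Egr1 and Klf4, which were not called. The share of all genes without overlap was not taken, so this is no result about the members. This comparison shares libraries with each of the other comparisons, so its values stand beside theirs and are not a second measurement.

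Fosb was 30-fold over control (log2 fold change 4.91 ± 0.37, SE, edgeR adjusted p = 0.000167), or 4.12 on the log2 scale with the GC and length correction. Ier2 was 12.7-fold over it (3.67 ± 0.27, SE, edgeR adjusted p = 0.000158), or 2.2 on the log2 scale with the GC and length correction. Junb was 6.7-fold over it (2.74 ± 0.29, SE, edgeR adjusted p = 0.000462), or 1.01 with that correction. Each of the 3 stayed called with the correction.

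Jun was 2.73-fold under control (-1.45 ± 0.18, SE, edgeR adjusted p = 0.000872), with libraries at 780 and 629 CPM against 263 and 271 CPM, and stood at -2.12 with the correction. Klf6 was 3.08-fold under it (-1.62 ± 0.18, SE, edgeR adjusted p = 0.000583). For both, the dexamethasone libraries lay between those of the other 2 groups. Atf3, with 30 and 54 counts in control, was 10.6-fold under it (-3.41 ± 0.79, SE, edgeR adjusted p = 0.0109), and this call was lost without the second control library (-2.71, edgeR adjusted p = 0.0564). Here it passed the filter on low counts only through the control libraries, where it was high, so the call is no support beyond its levels.

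Klf4 was not called against control (0.44 ± 0.27, SE, edgeR adjusted p = 0.233). It was called higher without the first control library (0.92, edgeR adjusted p = 0.0103), and lower with the GC and length correction (-1.12, edgeR adjusted p = 0.00217). Egr1 was not called either (-0.38 ± 0.19, SE, edgeR adjusted p = 0.153), and with the correction it was lower (-1.09, edgeR adjusted p = 0.00276). Fos, at 27.1 times its control level (4.76 ± 0.26, SE, 3.94 with the correction), and Klf2, at 11.6 times (3.53 ± 0.66, SE), are given as a description, and Klf2 stood at 6.07 on the log2 scale without the first control library, at 2.74 without the second and at 2.12 with the GC and length correction.

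The make-up of the AP-1 subunit RNA shifted between libraries. Over 7 subunit genes (Fos, Fosb, Fosl1, Fosl2, Jun, Junb and Jund), the summed level was 495 and 312 FPKM in control, 392 and 331 FPKM with dexamethasone and 351 and 401 FPKM with EPC-EVs, so these totals overlapped. Jun held 49.4% and 61.8% of the total in control, 41.6% and 43.8% with dexamethasone and 23.1% and 20.4% with EPC-EVs. Fos held 0.462% and 0.927% in control, 0.857% and 1.33% with dexamethasone and 19.5% and 18.5% with EPC-EVs. Junb held at most 3.63% without vesicles and 21.2% and 18.3% with them. The ratio of Junb to Jun FPKM was 0.0573 and 0.0395 in control, 0.0821 and 0.0829 with dexamethasone, and 0.92 and 0.894 with EPC-EVs. Fosl1, a Fos family subunit without a strong activation domain, went the other way, from 40.1% and 37.3% with dexamethasone to 6.44% and 4.1%. The ratio of Fos and Fosb to Jun and Junb was 0.0129 to 0.0402 in the 4 libraries without vesicles, and 0.564 and 0.672 with them.

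The summed level of Klf2, Klf4 and Klf6 was also divided differently. Klf6 held 64.7% and 79% of it in control, 65.5% and 69.4% with dexamethasone and 24.2% and 28.6% with EPC-EVs. Klf2 held 0.477% to 4.24% in the 4 libraries without vesicles and 34.4% and 32.7% with them. Klf4 held 20.5% to 31.9% without them and 41.5% and 38.7% with them. These shares restate the levels above, Fos and Klf2 included, and were given no test.

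**Figure D3:**
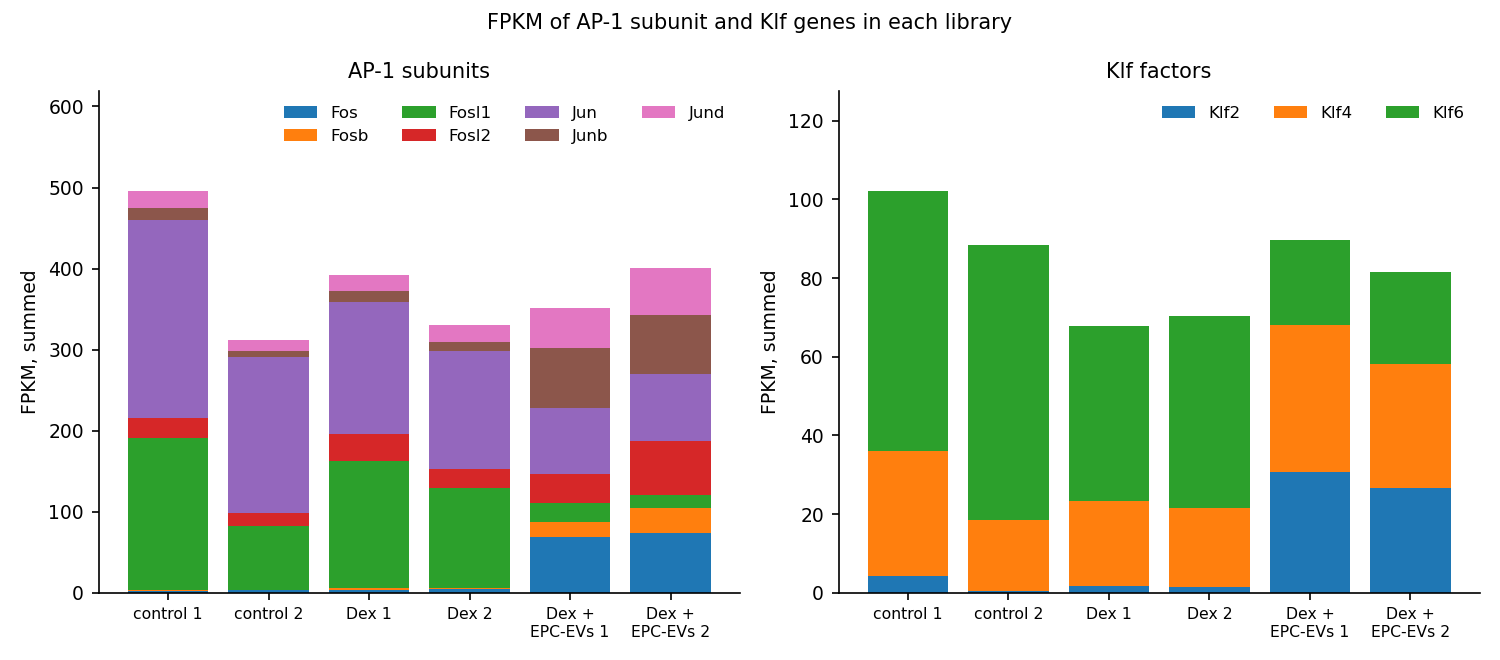
Stacked bars give the FPKM of 7 AP-1 subunit genes and of 3 Klf genes in each of the 6 libraries, on linear axes from 0. The AP-1 totals lie between 312 and 495 FPKM, the Jun and Fosl1 segments are smaller in the dexamethasone + EPC-EVs libraries, and the Fos, Fosb and Junb segments are larger there.

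Several members have GC-rich transcripts, and fold changes followed GC content across the table. The GC content was 62.7% for Junb, 61.6% for Klf2, 61.5% for Klf4, 60.9% for Ier2, 56.7% for Fosb, 55.5% for Jun and Egr1, 55.1% for Fos, 51.1% for Atf3 and 47.7% for Klf6, where the median gene tested in dexamethasone + EPC-EVs against dexamethasone had 49.9%. Spearman's rho between the log2 fold change and GC content, as a description across genes that share the same libraries, was 0.48 over 13544 genes in that comparison, 0.43 over 12867 in dexamethasone against control and 0.57 over 13498 in dexamethasone + EPC-EVs against control. In the tenth of genes richest in GC the median log2 fold change with EPC-EVs was 0.89, and in the poorest -0.96. Removing a joint trend in GC content and length from each library left Fos at 3.77, Fosb at 3.13, Ier2 at 2.53, Klf2 at 3.22 and Junb at 1.43 on the log2 scale, and left Klf6 at -0.83. GC content was not corrected apart from length. Jun and Egr1 both moved down under this joint correction, to -1.32 and -0.5. The call split of the 8 tested members was then 3 higher and 3 lower in place of 4 and 2, where 16% of all genes tested with the correction were called higher and 15.8% lower. Against control it was 3 higher and 5 lower in place of 3 and 3, where 12.5% of all genes were called higher and 15.1% lower. Both counts of lower members against control include Atf3, which passed the filter on low counts only through the control libraries.

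**Figure D4:**
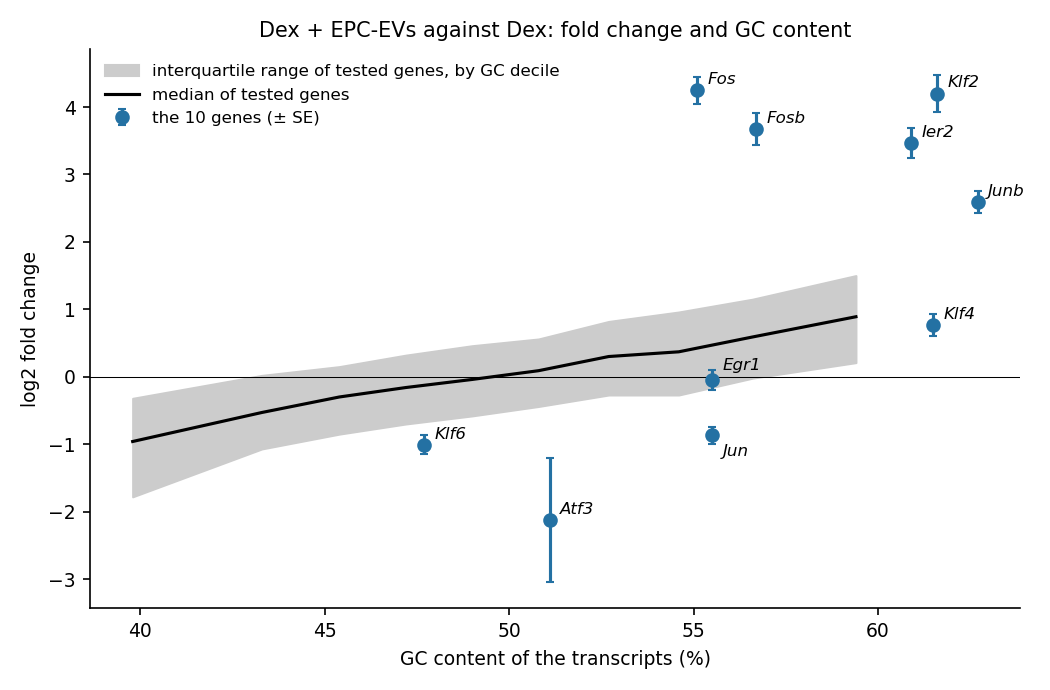
Log2 fold changes of dexamethasone + EPC-EVs against dexamethasone are plotted over the GC content of the transcripts, in percent. The line and band are the median and the interquartile range of tested genes by GC decile, from -0.96 to 0.89 in the median, and the points are the 10 genes with their SE. Fos and Fosb lie above the band, and Jun, Atf3 and Klf6 below it. To the right of its end, Ier2, Klf2 and Junb lie above the range of the last decile (0.21 to 1.5), and Klf4 within it.

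Other genes of the same pathways were read beside the members. Of 107 companion genes in 4 lists, 95 could be tested in dexamethasone + EPC-EVs against dexamethasone, of which 29 rose (20.9% of all genes tested did) and 28 fell (18.9% of all did). The counts of each single list that follows stand against the same shares. The median over the 95 was 0.18 on the log2 scale. With the GC and length correction this split was 16 higher and 28 lower, where 16% and 15.8% of all genes were called. Against control it was 27 higher and 29 lower of 95 (19.1% and 17.2% of all genes), and 14 and 27 with the correction (12.5% and 15.1% of all genes). These counts include genes that passed the filter on low counts only through the group where they were high: Arc and Klf5 in both comparisons, and Ier5l and Klf16 against control. In dexamethasone against control edgeR called 0 of 94, with 18 at an unadjusted p under 0.05 (1409 of all 12879 genes were), 3 called by DESeq2 (134 of all genes were) and 0 by limma.

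Among 16 tested AP-1 and ATF partners, 4 rose and 5 fell with EPC-EVs (median log2 fold change 0.22). Atf5, a stress-response bZIP factor, rose from 13.1 to 140 CPM (log2 fold change 3.37 ± 0.36, SE, edgeR adjusted p = 0.000133), or by 2.25 on the log2 scale with the GC and length correction and 4.01 without the first dexamethasone library. Atf4, the effector of the integrated stress response and an osteoblast differentiation factor, rose from 52.5 to 225 CPM (2.05 ± 0.2, SE). Jund rose from 32.3 to 92.6 CPM (1.47 ± 0.18, SE), but stood at -0.09 with the GC and length correction (edgeR adjusted p = 0.766). Fosl1 fell from 231 to 34.2 CPM (-2.8 ± 0.19, SE, edgeR adjusted p = 1.59e-06), and stood at -3.88 with the correction. Nfe2l2, the antioxidant response factor, fell from 292 to 116 CPM (-1.38 ± 0.13, SE), and Atf7 from 196 to 105 CPM (-0.95 ± 0.15, SE).

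Among 44 other immediate early genes tested, 15 rose and 12 fell (median 0.47). Arc, a neuronal activity gene, had 5 and 19 counts with dexamethasone and 194 and 118 with EPC-EVs, or 1.76 and 12.3 CPM on average. It is 1 of the 15, but it passed the filter on low counts only through the EPC-EVs libraries where it was high, so its log2 fold change (2.75 ± 0.6, SE, 1.99 with the correction, and 2.1 and 4.01 without the first and the second dexamethasone library) is a description. Rgs2, a regulator of G protein signalling, rose from 7.74 to 48.1 CPM (2.59 ± 0.31, SE, 3.19 without the first dexamethasone library), and Ier5l from 4.98 to 25.7 CPM (2.32 ± 0.41, SE), the last at 1.65 without the first dexamethasone + EPC-EVs library, and at 1.12 and not called with the correction (edgeR adjusted p = 0.0524). Nr4a2, an orphan nuclear receptor, fell from 17.3 to 5.01 CPM (-1.83 ± 0.36, SE). Tiparp, a target of the aryl hydrocarbon receptor, fell from 173 to 53.8 CPM (-1.73 ± 0.17, SE), or by 1 with the correction, and Mcl1, which restrains apoptosis, from 393 to 140 CPM (-1.54 ± 0.13, SE).

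Of 8 other Klf genes tested, 2 rose and 2 fell (median -0.4). Klf16 was at 1.47 and 0.398 CPM in control, 5.97 and 17.4 CPM with dexamethasone and 31.6 CPM in both libraries with EPC-EVs. Its rise over dexamethasone (1.39 ± 0.39, SE, edgeR adjusted p = 0.0143) was lost without the first dexamethasone library (0.83, adjusted p = 0.0609; 2.36 without the second) and with the GC and length correction (0.49, adjusted p = 0.39). Klf13 rose from 81.5 to 183 CPM (1.12 ± 0.15, SE), or by 0.55 on the log2 scale with the correction. Klf5, a growth-associated member, fell from 6.67 to 0.63 CPM (-3.42 ± 0.72, SE, edgeR adjusted p = 0.00298), a call lost without the second dexamethasone library (adjusted p = 0.0527). It passed the filter on low counts only through the dexamethasone libraries, where it was high. Klf3, a repressor, fell from 184 to 115 CPM (-0.73 ± 0.15, SE), a call lost without the first dexamethasone library (adjusted p = 0.0623).

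Of 27 upstream kinases and factors, 8 rose and 9 fell (median 0.09). Mapk7, the kinase ERK5 that acts on MEF2 factors and Klf2, rose from 13.5 to 46.1 CPM (1.72 ± 0.23, SE), or by 0.95 with the correction. Map2k2, which activates ERK, rose from 28.5 to 85.1 CPM (1.53 ± 0.18, SE), or by 0.85 with the correction. Srf, serum response factor, rose from 42.4 to 109 CPM (1.31 ± 0.17, SE), but by 0.34 and without a call once corrected (edgeR adjusted p = 0.179). Mef2c fell from 51.3 to 16.2 CPM (-1.71 ± 0.24, SE) and Creb1, which binds cAMP response elements, from 91.4 to 44.8 CPM (-1.08 ± 0.19, SE).

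Stress, steroid and cell type lists complete the account. Of 13 heat shock genes tested, 4 rose and 5 fell (median -0.03), among them Hspa1b, Dnajb1 and Hspa8 at 3.02, 1.61 and 1.49 on the log2 scale and Hspe1, Dnajb4 and Hsp90aa1 at -1.4, -1.33 and -1.32. Hspa1b was at 2.36 with the correction. Their summed level was 3140 and 3530 CPM with EPC-EVs and 3810 to 4410 CPM in the other libraries. Of 14 glucocorticoid response genes tested, edgeR called 0 in dexamethasone against control, with 4 at an unadjusted p under 0.05 and 0 called by DESeq2. With EPC-EVs added to dexamethasone 4 of them rose and 5 fell (median -0.28), led by Tsc22d3 at 2.4 and Dusp1, which switches off MAP kinases, at 2.21, and by Lcn2 at -7.11, Angptl4 at -3.95 and Mt1 at -3.79. Tsc22d3 stood at 1.7 without the second dexamethasone + EPC-EVs library and Lcn2 at -7.71. The Angptl4 call was lost without the second dexamethasone library (edgeR adjusted p = 0.18). With EPC-EVs Angptl4 had 0 counts in the first library and 10 in the second, and its log2 fold change was -2.97 without the first and -8.75 without the second, where only a count of 0 is left and the value is no bound. It too passed the filter only through the dexamethasone libraries. Sgk1 was called higher at 0.75, a call lost without either dexamethasone library. Among 10 osteoblast markers tested, Col1a2, Col1a1 and Sparc rose (1.89, 1.51 and 1.25), Spp1 and Phex fell (-1.06 and -1.92), and 5 were not called. Phex was without a call after the correction (-1.05, edgeR adjusted p = 0.0718) and at -2.63 without the first dexamethasone + EPC-EVs library. Of 7 endothelial markers tested Cd34 was called, at -0.51, a call lost without either dexamethasone library and with the correction (-0.29, edgeR adjusted p = 0.113). Of 4 leukocyte markers tested Cd14 was called, at 2.44, or 3.19 without the second dexamethasone library.

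**Figure D5:**
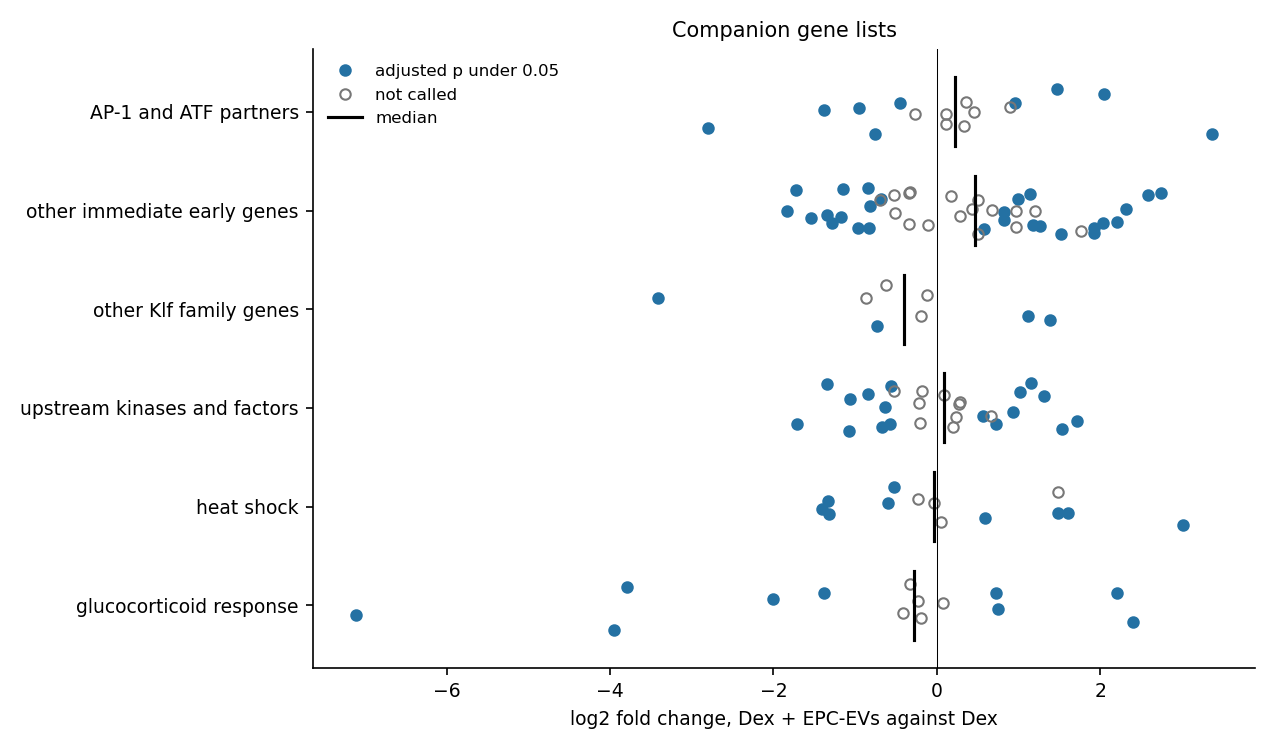
Each point is a tested gene of the list named on the vertical axis, at its log2 fold change in dexamethasone + EPC-EVs against dexamethasone. Filled points had an edgeR adjusted p under 0.05, open points did not, bars are list medians, and vertical scatter has no meaning. Called genes lie on both sides of 0 in each of the 6 lists, whose medians lie between -0.4 and 0.47.

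The pattern of each member over the 6 libraries was compared by the Euclidean distance of centred log2 CPM. Jun and Klf6 were the closest pair, at 0.42. Junb was closest to Ier2 (1.14), Fos to Fosb (1.28), Egr1 to Klf4 (1.19), Klf2 to Ier2 (1.78) and Atf3 to Klf6 (1.84). Among 9222 genes that averaged 10 CPM or more, those nearest to Fos were Col8a2 at 0.88 and Sfrp2 at 1.09, followed by Fosb, Fgd3 at 1.42 and Ier2 at 1.52. Col8a2, a short-chain collagen, was at 20.6, 46.2 and 632 CPM in control, dexamethasone and dexamethasone + EPC-EVs, and Sfrp2, a secreted Wnt modulator, at 17.9, 19.4 and 314 CPM. Those nearest to Klf2 were Dnlz and Megf6 at 1.39, Aoc3 at 1.43, Ifi27l2a at 1.57 and Nr2f6 at 1.58. Fos and Klf2 were picked for their rise with EPC-EVs, so genes high in those libraries had to come out as nearest. The minimum of 10 CPM was reached by 465 of the genes only through those libraries, among them Fosb, Fgd3, Dnlz, Megf6, Aoc3, Ifi27l2a and Nr2f6. The distances rest on 6 libraries in 3 groups and are a description of likeness in level only.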

How the data were processed

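MC3T3-E1 Subclone 14 cells of all groups were trypsinized before their RNA was extracted with TRIzol. The part of this handling in the levels was not tested. The RNA was sequenced in 6 libraries. The authors aligned the reads with HISAT2, counted them on GRCm38 genes with HTSeq 0.6.1 and deposited the counts without normalization. The FPKM deposited beside them were, on the file's values, proportional to count over library total for each gene, and were used for levels between genes. HISAT2 was run as stranded, while whether HTSeq used strand is not given in the sources used here. The series' own design text names fibroblasts, 48 hours and fewer groups, and the sample labels were followed. A second table of transcripts holds none of the 10 genes and was not used.

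Each comparison was fitted on its 4 libraries over the whole gene table with edgeR 4.0.16 in R 4.3.3 (TMM, filterByExpr, robust quasi-likelihood test, Benjamini-Hochberg adjustment over all genes tested), and called at an adjusted p under 0.05. All 10 members passed the filter in each comparison. With EPC-EVs, Atf3 did so only through the other group and, against control, Klf2 only through the EPC-EVs libraries. CPM are TMM-normalized. Intervals are 95%. The fit was tested on simulated data. Alternatives were RLE and upper-quartile factors, DESeq2 1.42.0, limma 3.58.1 on log2(FPKM + 1), other filters, all 6 libraries in one fit, a replicate block, a loess correction for GC content and length (span 0.4), no mitochondrially encoded genes, each library left out in turn, and the thresholds of the study's methods (a log2 fold change beyond 1.5 with an unadjusted p under 0.05).

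The members and lists were chosen with earlier results of these data known. Named were the members, the 3 largest and 3 smallest log2 fold changes among called genes of each list with EPC-EVs against dexamethasone, and the 5 genes nearest to Fos and to Klf2. One gene that this rule names is not reported here. The Csf1r, Alpl, Bglap and Ibsp counts, Prdx2, Junos, Fosl2 and the control levels of Klf16 were named after their values were seen. Counts of replicate libraries differed beyond sampling noise (chi-square over its degrees of freedom, 7.17 to 20.1). Coordinates are those of GENCODE vM21, matched for 21646 of 21686 genes. Promoters are from RefSeq.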

Additional observations from a re-analysis of the deposited data

How the results depend on the processing

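In dexamethasone + EPC-EVs against dexamethasone, 6 of the 8 tested members were called under each library left out, and Fosb, Junb, Ier2, Jun and Klf6 kept their call and direction under the alternatives tried other than the study's thresholds, under which 4 were called (Fosb, Junb, Ier2 and, lower, Atf3). Of these, Atf3 passed the filter on low counts only through the dexamethasone libraries, where it was high, so its call is no support beyond its levels. Klf4 reversed to -0.25 with the GC and length correction and to -0.26 with that and the replicate block. Egr1 reversed to 0.05 and 0.15 without the second dexamethasone and the second dexamethasone + EPC-EVs library (-0.23 to 0.15 over each library left out). Against control, members called ran from 5 to 7 with a library left out, and Klf4 reversed to -1.12 with the correction and -1.11 with block and correction. In dexamethasone against control, Junb reversed to -0.42 with the correction, alone or with the block, and to -0.19 without the second control library (-0.19 to 0.65 over each library left out). Ier2 reversed to -0.32 with the correction, -0.33 with block and correction, -0.09 without the second control and -0.21 without the first dexamethasone library (-0.21 to 0.61). Without the first control library, Klf2 reversed to 1.82 (-1.47 to 1.82) and Klf4 to 0.12 (-0.65 to 0.12). The causes were not tested.

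In dexamethasone against control, calls over all genes (7), members (0) and companion genes (0) were 248, 2 and 6 with no filter, 32, 1 and 1 with the GC and length correction, 134, 2 and 3 with DESeq2, and 9 to 2200, 0 to 4 and 1 to 23 with a library left out, the highest each without the first control library. All genes gave 1 without mitochondrially encoded genes, 0 with limma and 182 under the study's thresholds, which called 2 companion genes. With those thresholds, calls with EPC-EVs against dexamethasone moved from 5397 to 1922 over all genes and from 57 to 19 over companion genes, and against control from 4916 to 2793 and from 56 to 21. With a library left out, all genes gave 3250 to 4813 and 3375 to 6231, and companion genes 38 to 61 and 45 to 56. With 1 library in a group, that library is assumed to vary like the others. At these depths Atf3, with 9 to 54 counts, and Klf2, with 4 counts in 1 control library, are the least precise.

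The groups share replicate numbers, but no label says what a number marks. Same-numbered deviations correlated at 0.14 (control and dexamethasone), 0.04 (control and dexamethasone + EPC-EVs) and 0 (dexamethasone and dexamethasone + EPC-EVs), so the numbers were not taken as pairs. With the replicate block, calls over all genes, members and companion genes in dexamethasone against control were 43, 0 and 1, and 348, 4 and 12 with block and correction. In the vesicle comparisons the block gave 5366 against dexamethasone and 4679 against control over all genes, with 6 members in each.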
